A study of Mus musculus with 12 samples.

Results

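The Notch pathway was examined through 10 genes, chosen by symbol from the 24421 rows of the count table: the receptor Notch1, the ligands Dll1, Dll3 and Jag1, the receptor-modifying enzyme Lfng, and the target genes Hes1, Hes5, Hey1, Hey2 and Heyl. All 10 were found, and all 10 were among the 14810 genes that passed a filter on low counts and were tested. RNA had been sequenced from C57Bl/6 mouse embryos at embryonic day 9.0 (E9.0) and E9.5. At each stage 3 libraries were labelled Eftud2+/-, the controls, and 3 were labelled Eftud2-/-, the mutants, so that 12 libraries fell into 4 groups. Eftud2 encodes a GTPase of the spliceosome, and per the series' design text it was altered in neural crest cells. The controls therefore also carried 1 altered copy, and an unmodified genotype was not part of the comparison. The driver of the neural crest-specific change and the number of embryos in a library are not given in the sources used here.

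The labels disagree on the tissue, naming neural crest cells, cranial nerve ganglia and, in the protocol, the embryo's head. Markers of several cell types were present in every library. The summed level of 12 endothelial markers ranged from 200 to 409 CPM (counts scaled to library size, with TMM factors) over all libraries, that of 9 neural progenitor markers from 864 to 1100 CPM, and that of 9 migrating neural crest markers from 219 to 401 CPM. Heart muscle markers summed to 55.7 to 284 CPM at E9.0 and 1640 to 2590 CPM at E9.5, and primitive erythroid markers to 537 to 1170 and 2790 to 5200 CPM. Of the presomitic mesoderm markers, Tbx6, Mesp2, Msgn1, Hes7 and Ripply2 never exceeded 0.399 CPM. Libraries held 13914543 to 31172708 counts, and the ribosomal RNA precursor Rn45s took 4.4% to 16.2% of them in 11 libraries and 37.4% in heterozygous E9.0 replicate 1. Eftud2 ranged over 232 to 236 CPM in mutant and 275 to 302 CPM in control libraries of E9.0, and over 221 to 226 and 248 to 264 CPM in those of E9.5. The groups did not overlap, and the log2 differences were −0.29 ± 0.05 and −0.19 ± 0.05 (edgeR adjusted p 0.0193 and 0.0906). The 2 stages differ in depth and Rn45s share, and stage and any batch cannot be told apart. Nothing in the labels says that replicates came from separate litters or pools, so p-values measure the spread between these libraries.

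Notch signalling passes between touching cells. A Delta-like or Jagged ligand on one cell engages a Notch receptor on its neighbour, the receptor is cut by an ADAM protease and by gamma-secretase, and the freed intracellular domain joins the DNA-binding protein Rbpj to switch on repressors of the Hes and Hey families. In the embryonic neural tube this restrains neighbours of newborn neurons and keeps progenitors dividing, with Hes1 and Hes5 as the main outputs. In blood vessels the same route promotes artery formation, with Hey1, Hey2 and Heyl among the outputs. For the text, Dll1, Dll3, Lfng and Hes5 are grouped as the neural readout and Hey1, Hey2 and Heyl as the vascular readout, from general knowledge. Notch1, Jag1 and Hes1 serve both tissues.

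Because the targets are read out through Rbpj, the 250 bases upstream of the RefSeq transcription starts (build GRCm38.p6) were searched on both strands for the Rbpj core TGGGAA. Sequences were available for 7 of the 10 members, namely Notch1, Jag1, Hes5, Lfng, Dll3, Hey2 and Dll1. The core was found upstream of Hes5, with 2 matches, of Lfng, with 2, and of Hey2, with 1. Among all 32851 upstream sequences of this length 21.6% held at least 1 match. The letters CAGCTG, an E-box bound by proneural factors, were found upstream of Lfng, Jag1, Dll3 and 1 of 2 starts of Dll1, against 13% of all sequences. The Dll3 and Jag1 matches lie inside annotated exons. The 3 sequences with the core are shown because they belong to members on both sides of the neural and vascular split, 5′ to 3′ on the gene's strand, with TGGGAA, its reverse complement TTCCCA and CAGCTG in capitals and any bases inside an annotated exon left out.
Hes5 upstream, chr4:154960673-154960922, plus strand: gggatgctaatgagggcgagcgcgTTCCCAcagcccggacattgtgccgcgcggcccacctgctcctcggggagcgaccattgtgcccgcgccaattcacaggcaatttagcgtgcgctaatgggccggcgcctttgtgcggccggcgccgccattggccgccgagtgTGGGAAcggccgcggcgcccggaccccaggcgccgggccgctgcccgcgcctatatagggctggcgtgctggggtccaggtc
Lfng upstream, chr5:140607091-140607319, plus strand: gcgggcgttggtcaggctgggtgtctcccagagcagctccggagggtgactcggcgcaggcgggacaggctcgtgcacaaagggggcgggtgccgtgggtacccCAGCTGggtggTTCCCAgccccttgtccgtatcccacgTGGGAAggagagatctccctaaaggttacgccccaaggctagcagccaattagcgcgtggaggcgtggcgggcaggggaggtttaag
Hey2 upstream, chr10:30842802-30843033, minus strand: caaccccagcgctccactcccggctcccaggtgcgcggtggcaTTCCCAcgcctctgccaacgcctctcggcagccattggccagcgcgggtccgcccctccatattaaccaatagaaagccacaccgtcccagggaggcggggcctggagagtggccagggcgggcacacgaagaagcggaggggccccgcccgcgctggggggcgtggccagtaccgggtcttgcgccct
In Hes5 the matches begin 226 and 82 bases before the start, in Lfng 135 and 108 bases before it, and in Hey2 207 bases before it. In Lfng the nearer match shares bases with CACGTG, an E-box bound by Hes and Hey proteins among others, which begins 112 bases before the start and which 6.02% of all sequences held. A match is a description of the letters and not evidence of a bound site.

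The members span a wide range of levels. Scaled to exon length (CPM per kilobase of merged exons in GENCODE M21), the order in heterozygous E9.5 libraries ran from Hes5 at 30.0 ± 5.47 (SD, n = 3) through Jag1 at 18.9 ± 2.73, Lfng at 17.2 ± 3.12, Hes1 at 16.6 ± 0.926, Dll1 at 10.7 ± 1.70, Hey1 at 9.71 ± 0.692 and Notch1 at 8 ± 0.561 to Dll3 at 3.28 ± 0.128, Hey2 at 2.36 ± 0.145 and Heyl at 0.81 ± 0.244. The ranges of Jag1 and Lfng, of Lfng and Hes1, and of Dll1 and Hey1 overlapped, so these neighbours in the order were not separated beyond their spread. In heterozygous E9.0 libraries Jag1 (21.6 ± 1.43 CPM per kilobase) and Hes5 (21.2 ± 1.94) headed the order with overlapping ranges, and Dll3 (0.852 ± 0.203) lay below Hey2 (1.99 ± 0.114). Dll3 and Hey2 changed places with genotype at E9.5: in homozygous libraries Hey2 stood at 3.09 ± 0.222 and Dll3 at 1.91 ± 0.0657 CPM per kilobase, and the ranges did not overlap in either genotype.

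**Figure D1:**
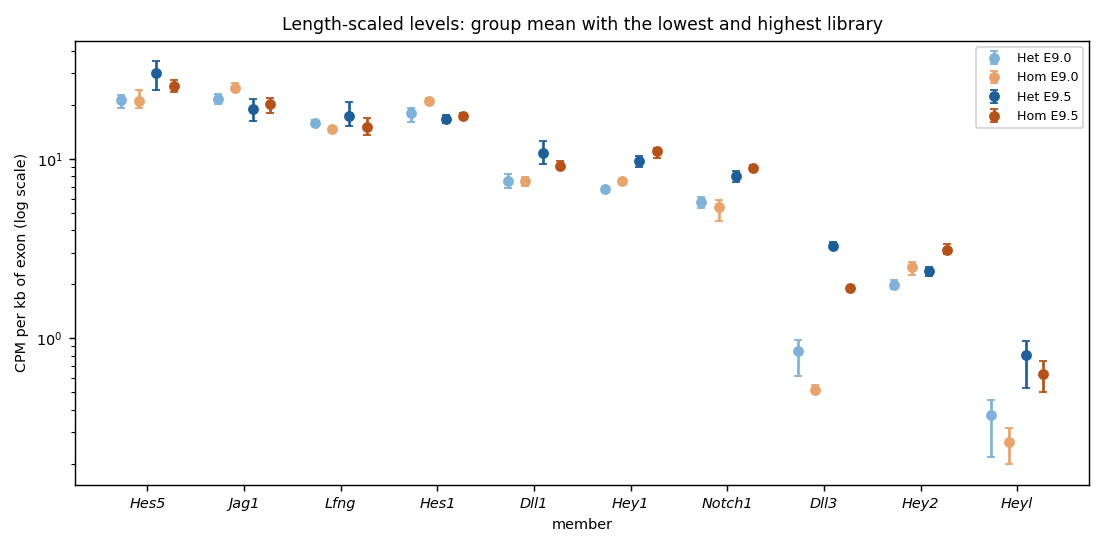
Length-scaled levels of the 10 members, in CPM per kilobase of exon on a log axis; points are means of 3 libraries and bars reach from the lowest to the highest library of each group. Hes5, Jag1, Lfng and Hes1 form the upper tier in all 4 groups, and Dll3 passes Hey2 in heterozygous E9.5 libraries.

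Between genotypes, 2 of the 10 members changed at E9.5, where 1.89% of all tested genes did (edgeR adjusted p under 0.05). Dll3 fell, as did 0.702% of all genes, and Hey2 rose, as did 1.19%. The Hey2 call was lost in every fit that left out 1 E9.5 library. At E9.0, 0 of 10 passed the test, against 0.587% of all genes. There 3 members had an unadjusted p under 0.05 with edgeR, as did 1969 of the 14810 genes tested, and DESeq2 and limma-voom likewise called 0 members. Averaged over both stages the same 2 genes, Dll3 and Hey2, were called, against 2.96% of all genes, of which 1.14% fell and 1.82% rose. Over the 10 members the log2 differences had a median of −0.02 in the earlier and −0.06 in the later stage, beside 0.00 for all tested genes in each, and 4 and 5 of the 10 were positive. The genotype groups failed to overlap for 6 of 10 members at E9.0, where Jag1, Hes1, Hey1 and Hey2 were higher and Dll3 and Lfng lower in homozygous libraries. Of all genes 17.3% did so, 9.07% higher and 8.2% lower. At E9.5 they failed to overlap for 3 of 10, Notch1 and Hey2 higher and Dll3 lower, against 20.9% of all genes, 11.4% higher and 9.47% lower. At both stages in 1 direction they did so for Dll3 and Hey2, against 3.57% of all genes, 2.03% higher and 1.54% lower.

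**Figure D2:**
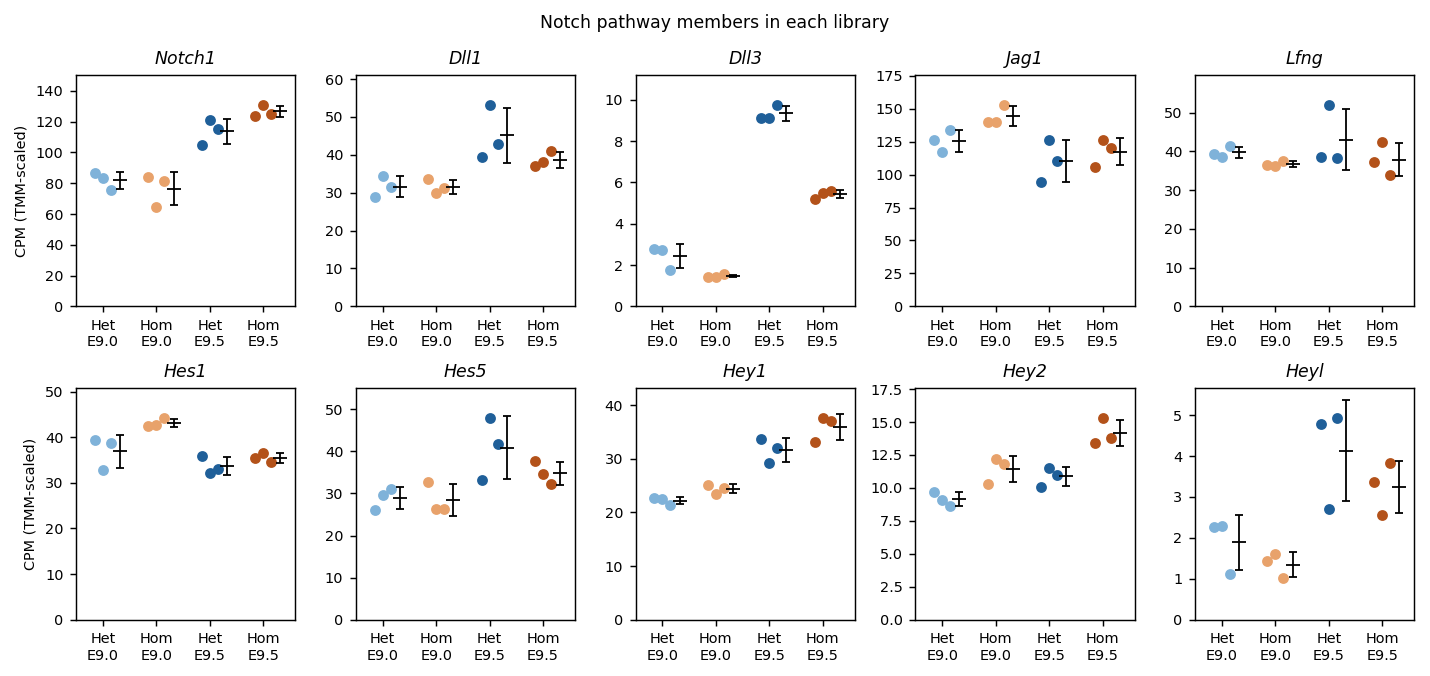
Level of each member in each library, in TMM-scaled CPM on axes that start at 0; points are the 3 libraries of a group in replicate order and the bar beside them is the mean ± SD. The panels of Dll3 and Hey2 show the genotype groups apart at both stages, Dll3 with homozygous libraries lower and Hey2 with homozygous libraries higher.

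Dll3 encodes a divergent Delta-like protein that is held inside the cell and dampens Notch signalling, and it is made by newborn neurons and in the presomitic mesoderm. The gene lies on the minus strand at chr7:28293553-28302238 (GRCm38, GENCODE M21), and no annotated exon of another gene overlaps its exons. It stood at 2.79, 2.73 and 1.76 CPM in heterozygous and 1.43, 1.43 and 1.55 CPM in homozygous E9.0 libraries. At E9.5 the values were 9.14, 9.12 and 9.76 CPM in heterozygous and 5.22, 5.49 and 5.58 CPM in homozygous libraries. All homozygous libraries lay below all heterozygous libraries of their stage. The E9.5 means of 9.34 ± 0.364 and 5.43 ± 0.187 CPM (SD, n = 3 each) correspond to a log2 change of −0.78 with a standard error of 0.13 and a 95% interval of −1.06 to −0.50 (adjusted p 0.00596, edgeR). At E9.0, where the libraries held only 19 to 51 Dll3 counts each, the log2 fold change was −0.69 ± 0.20 and did not pass the test (edgeR adjusted p 0.167). The difference between the stages' effects was −0.09 ± 0.25 (95% interval −0.62 to 0.44; edgeR adjusted p 0.950). In the average of the stages Dll3 fell by 0.74 on the log2 scale (SE 0.12; edgeR adjusted p 0.00289), and an exact permutation of genotype labels within each stage gave an unadjusted two-sided p of 0.005, the smallest that its 400 arrangements allow. Dropping any single E9.5 library (6 fits) kept the E9.5 call, as did the 12 other alternatives; at E9.0 the call was made without heterozygous E9.0 replicate 3, the lowest of its group, where the value was −0.91.

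Markers of neurons and neurogenesis moved beside Dll3. Their summed level was 76.6 to 80.7 CPM in heterozygous and 66.9 to 67.8 CPM in homozygous E9.0 libraries, and 194 to 237 against 153 to 165 CPM at E9.5, again without overlap. Of the 10 markers, 7 were lower and 3 higher in homozygous libraries at E9.0, and 8 lower and 2 higher at E9.5; 1 and 2 of them passed the test, all lower (edgeR adjusted p under 0.05). Tubb3 was the most abundant marker of the list, reaching 103 CPM where no other exceeded 23.3 CPM. The neuronal tubulin gene Tubb3 fell at E9.5 from 94.3 ± 10.1 to 58.5 ± 2.42 CPM (edgeR adjusted p 0.000172). Neurog2, a proneural factor, was at 8.23 ± 0.507 and 10.8 ± 0.528 CPM at E9.5 and did not pass the test (edgeR adjusted p 0.123). With each stage's mean removed, Dll3 followed the summed neuronal markers over the 12 libraries with Pearson's r 0.83, but with each group's mean removed r was −0.07. The neuronal list was not particular in this, as with stage means removed Dll3 had r 0.74 with migrating neural crest and −0.71 with endothelial sums. In bulk RNA, fewer neurons and less Dll3 per neuron cannot be told apart, and the part of neuronal content in the Dll3 difference was not tested. Migrating neural crest markers had negative differences in 8 of 9 cases at each stage, the exceptions being Foxd3 at E9.0 (0.05) and Ets1 at E9.5 (0.40). Their sums were 377 to 401 against 322 to 347 CPM at E9.0 without overlap, and 234 to 260 against 219 to 240 CPM at E9.5, with overlap. Of the 9, 1 and 5 fell (edgeR adjusted p under 0.05), and their part in the Dll3 difference was not tested either. Of the 9 presomitic and somite markers, the 5 presomitic genes given above were near 0, while the somite genes Meox1, Pax1, Tcf15 and Uncx reached 37.8, 9.13, 6.41 and 1.89 CPM. The list's sum overlapped between genotypes, at 24.1 to 40.4 against 27.8 to 51.9 CPM at E9.0 and 17.4 to 26.4 against 16.4 to 51.1 CPM at E9.5. The part of this tissue in the Dll3 difference was not tested.

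**Figure D3:**
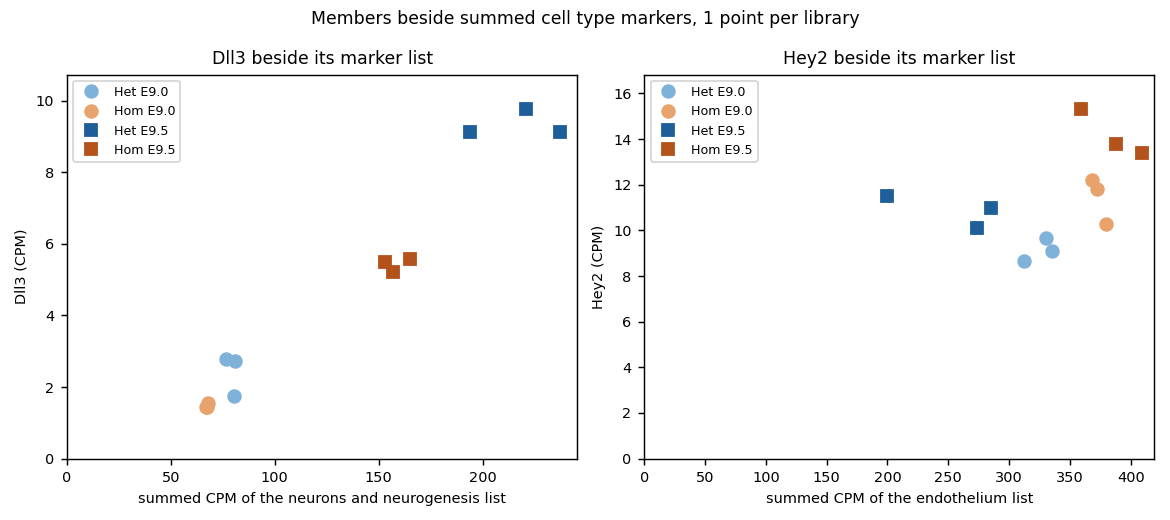
Left, Dll3 against the summed level of the neurons and neurogenesis list; right, Hey2 against the summed level of the endothelium list; both axes are in CPM and each point is 1 of 12 libraries. In both panels the genotype groups separate on both axes within each stage, and with group means removed r is −0.07 on the left and −0.44 on the right.

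Dll1, Lfng and Hes5, the other neural members, differed less than Dll3. Dll1, a Notch-activating ligand of newborn neurons, stood at 28.8, 34.5 and 31.5 CPM in heterozygous and 33.5, 29.8 and 31.2 CPM in homozygous E9.0 libraries, and the groups overlapped. At E9.5 it stood at 39.4, 53.2 and 42.8 CPM in heterozygous and 37.0, 38.0 and 41.0 CPM in homozygous libraries, with an overlap through the lowest heterozygous library. The E9.5 log2 difference was −0.22 ± 0.10 (edgeR adjusted p 0.322, 95% interval −0.43 to −0.02), and it was −0.09 without heterozygous E9.5 replicate 2.

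Hes5, the repressor most closely tied to Notch activity in neural progenitors, stood at 33.1, 47.9 and 41.7 CPM in heterozygous E9.5 libraries and 37.6, 34.6 and 32.2 CPM in homozygous ones. The groups overlapped, and the log2 difference of −0.23 ± 0.12 did not pass the test (edgeR adjusted p 0.443, 95% interval −0.49 to 0.03). Over the fits without 1 library this difference ranged from −0.36 to −0.1. At E9.0 the values were 26, 29.6 and 31.1 against 32.8, 26.2 and 26.3 CPM, a log2 difference of −0.03 ± 0.13 (edgeR adjusted p 0.940). Lfng, which adds sugars to Notch receptors and shifts their preference between ligands, stood at 39.2, 38.6 and 41.3 against 36.4, 36.1 and 37.5 CPM at E9.0. These groups did not overlap, but the log2 difference of −0.12 ± 0.11 did not pass the test (edgeR adjusted p 0.694). At E9.5 Lfng was at 43.0 ± 7.83 and 37.8 ± 4.30 CPM (SD, n = 3 each; edgeR adjusted p 0.500). Its log2 difference there was −0.18, and −0.27 to −0.02 over the fits without 1 library. All 4 members grouped as the neural readout had negative differences at both stages under TMM scaling. At E9.0 those of Dll1 (−0.01 ± 0.10) and Hes5 (−0.03 ± 0.13) were smaller than their standard errors. Hes1, also a main neural output but grouped with both tissues, was positive at 0.22 ± 0.08 and 0.07 ± 0.07. With total counts as the only scaling Dll1, Lfng and Hes5 were positive at E9.0, at 0.17, 0.08 and 0.15, where the median of all genes moved by 0.19. Neural progenitor markers, which include Sox2 and Nes, overlapped between genotypes at both stages in summed level, at 906 to 937 against 864 to 943 CPM at E9.0 and 901 to 1100 against 951 to 1040 CPM at E9.5. These sums are carried by the abundant genes of the list; of its 9 genes 0 passed the test at E9.0 and 1 at E9.5, Fabp7, a fatty acid-binding protein gene of radial glia. Fabp7 stood there at 24 ± 2.70 CPM in heterozygous and 15.7 ± 1.01 CPM in homozygous libraries (SD, n = 3 each). Its log2 change was −0.61 ± 0.13 (edgeR adjusted p 0.0194), a call lost without heterozygous replicate 2 or any 1 homozygous library of E9.5 and with total counts only.

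Hey2, a repressor known from arteries and from the ventricles of the heart, was the member that rose; its gene lies on the minus strand at chr10:30832359-30842801. It stood at 9.68, 9.11 and 8.64 CPM in heterozygous and 10.3, 12.2 and 11.8 CPM in homozygous E9.0 libraries. At E9.5 it stood at 10.1, 11.5 and 11 CPM in heterozygous and 13.4, 15.3 and 13.8 CPM in homozygous libraries. Every homozygous library lay above every heterozygous library of its stage. The E9.5 log2 fold change of 0.39 ± 0.09 only just passed the test (edgeR adjusted p 0.0468, 95% interval 0.19 to 0.59). No fit lacking 1 of the 6 E9.5 libraries kept that call, with values of 0.33 to 0.43 and adjusted p up to 0.225, nor did the fits with total counts only, with only the groups compared and with the replicate number as a block. At E9.0 the log2 difference was 0.33 ± 0.11 (edgeR adjusted p 0.195). In the average of both stages the rise was 0.36 ± 0.07 (edgeR adjusted p 0.0106), higher in 6 of 6 homozygous libraries than in any heterozygous library of the stage, and this call was kept in all 12 fits that left out 1 library. Exact permutation within stages gave an unadjusted p of 0.005, the smallest possible, and the effect did not detectably differ between stages (0.05 ± 0.14; edgeR adjusted p 0.947).

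Vessel markers moved beside Hey2. The 12 endothelial markers summed to 312 to 335 CPM in heterozygous and 368 to 380 CPM in homozygous E9.0 libraries, and to 200 to 285 against 359 to 409 CPM at E9.5, without overlap. All 12 had positive differences at both stages, and 0 and 8 of them passed the test (edgeR adjusted p under 0.05). The 9 arterial markers summed to 343 to 362 against 359 to 380 CPM at E9.0, with overlap, and to 308 to 336 against 369 to 391 CPM at E9.5, without. Of these 7 and 8 had positive differences; Efnb2 was at 0.02 and 0.05 and Cxcr4 at −0.22 and −0.25. At E9.5 only Unc5b, a guidance receptor of arterial endothelium, passed the test at 0.44 ± 0.09 (edgeR adjusted p 0.0148; lost without heterozygous replicate 2 or homozygous replicate 2 or 3, with total counts only and with only the groups compared). The 5 venous markers summed to 428 to 480 against 461 to 481 CPM at E9.0, with overlap, and to 290 to 362 against 402 to 458 CPM at E9.5, without; Nrp2 (0.70 ± 0.09, edgeR adjusted p 0.00115) and Flt4 (0.75 ± 0.15, edgeR adjusted p 0.0249; lost without homozygous replicate 1 or 3 and with only the groups compared) rose there. Mural cell markers summed to 106 to 142 against 126 to 163 CPM at E9.0, with overlap, and 372 to 400 against 476 to 543 CPM at E9.5, without. The E9.5 sums were carried by Acta2, at 234 ± 26.4 and 308 ± 25 CPM, which did not pass the test (edgeR adjusted p 0.6). Of the mural markers only Tagln passed the test (0.47 ± 0.09 at E9.5, edgeR adjusted p 0.0180). That call was lost without heterozygous replicate 3 or homozygous replicate 2 or 3 and with total counts only. Heart muscle markers were positive in 7 of 7 cases at both stages with 0 past the test, and their sums overlapped between genotypes. With each stage's mean removed, Hey2 followed the summed endothelial markers over 12 libraries with Pearson's r 0.65, and with each group's mean removed r was −0.44. The endothelial list was not particular in this. With stage means removed Hey2 had r 0.72 with arterial, 0.74 with mural, −0.79 with neuronal and −0.74 with migrating neural crest sums. The part of vessel or heart content in the Hey2 difference was not tested.

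Hey1, the close relative of Hey2 in arterial endothelium, stood at 22.7, 22.5 and 21.4 CPM in heterozygous and 25.2, 23.5 and 24.5 CPM in homozygous E9.0 libraries, and the groups did not overlap. At E9.5 it stood at 33.7, 29.2 and 32.1 against 33.1, 37.6 and 37.1 CPM, with an overlap. Neither difference passed the test, at 0.14 ± 0.08 and 0.18 ± 0.07 (edgeR adjusted p 0.488 and 0.291), nor did their average of 0.16 ± 0.06 (edgeR adjusted p 0.144, 95% interval 0.04 to 0.28). Heyl, which is made in arterial mural cells, went the other way in mean level, from 1.90 ± 0.677 to 1.35 ± 0.303 CPM at E9.0 and from 4.14 ± 1.25 to 3.25 ± 0.647 CPM at E9.5 (SD, n = 3 each). Its groups overlapped at both stages, libraries held 15 to 157 Heyl counts, and the log2 differences were −0.44 ± 0.36 and −0.35 ± 0.25 (edgeR adjusted p 0.629 and 0.633).

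Notch1, Jag1 and Hes1, which act in both tissues, did not pass the genotype test at either stage. Notch1, the receptor, stood at 86.6, 83.2 and 75.9 CPM in heterozygous and 84.0, 64.3 and 81.2 CPM in homozygous E9.0 libraries, with overlap. At E9.5 it stood at 105, 121 and 115 against 124, 131 and 125 CPM, without overlap. The log2 differences of −0.10 ± 0.09 and 0.15 ± 0.08 had opposite signs, and the difference between them was 0.25 ± 0.12 and did not pass the test (edgeR adjusted p 0.589). Notch1, Dll1 and Hes5 overlap annotated genes on the opposite strand, and since the strand setting of the counting is not given in the sources used here, reads of these partners cannot be told apart.

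Jag1, an activating ligand of endothelium, neural tube and ear, stood at 126, 117 and 134 CPM in heterozygous and 140, 140 and 153 CPM in homozygous E9.0 libraries, without overlap. At E9.5 it stood at 94.3, 126 and 110 against 106, 126 and 120 CPM, with overlap. The log2 differences were 0.20 ± 0.09 and 0.09 ± 0.09 (edgeR adjusted p 0.377 and 0.784). Hes1, a repressor used by progenitors of many tissues, stood at 39.3, 32.8 and 38.7 against 42.4, 42.7 and 44.2 CPM at E9.0, without overlap, and at 35.8, 32.2 and 33.1 against 35.4, 36.6 and 34.5 CPM at E9.5, with overlap. Its log2 differences were 0.22 ± 0.08 and 0.07 ± 0.07 (edgeR adjusted p 0.223 and 0.768). None of the 10 members had a genotype effect that differed between stages in edgeR's interaction test, which 0.0675% of all genes passed, 0.00675% upward and 0.0608% downward. Of the 10, 0 had an unadjusted p under 0.05 in that test, against 1274 of the 14810 genes tested. DESeq2 and limma-voom also called 0 members there.

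From E9.0 to E9.5 more members passed the test than between genotypes. In heterozygous libraries 6 of 10 rose and 0 fell, where 35.2% of all tested genes changed, 19.2% upward and 16% downward (edgeR adjusted p under 0.05). In homozygous libraries 6 rose and 2 fell, where 35.4% of all genes changed, 19.6% upward and 15.8% downward. These stage comparisons use the same libraries as the genotype comparisons, so the values are given side by side. Dll3 had the largest rise of the 10, by 1.97 ± 0.15 on the log2 scale in heterozygous and 1.88 ± 0.18 in homozygous libraries, so that homozygous E9.5 libraries were above both E9.0 groups. Heyl rose by 1.16 ± 0.29 and 1.25 ± 0.32, Notch1 by 0.48 ± 0.09 and 0.73 ± 0.09, and Hey1 by 0.51 ± 0.08 and 0.56 ± 0.08 (edgeR adjusted p at most 0.0067 in each). Dll1 rose by 0.51 ± 0.10 in heterozygous and by 0.30 ± 0.10 in homozygous libraries (edgeR adjusted p 0.000925 and 0.0324), the latter call being lost without homozygous replicate 2 or 3 of either stage. Marker sums also differed between stages. Heart muscle sums were 55.7 to 284 CPM at E9.0 and 1640 to 2590 CPM at E9.5. Mural sums were 106 to 163 and 372 to 543 CPM, and neuronal sums 66.9 to 80.7 and 153 to 237 CPM. Migrating neural crest sums were lower at E9.5. With group means removed, Notch1 followed the heart muscle and mural sums (Pearson's r 0.79 and 0.77 over 12 libraries). The part of tissue content in the stage changes was not tested.

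Hes5 rose in heterozygous libraries by 0.50 ± 0.12 (edgeR adjusted p 0.00631; 0.38 and 0.0727 when GC content and gene length were corrected for) and had 0.30 ± 0.13 in homozygous ones, short of the threshold (edgeR adjusted p 0.0833). It passed without homozygous E9.0 replicate 1 (edgeR adjusted p 0.0315), with total counts only (0.0495) and with only the groups compared (0.0315). Hey2 was at 0.25 ± 0.10 in heterozygous libraries (edgeR adjusted p 0.0621; 0.63 and 0.00219 with total counts only) and had a rise of 0.31 ± 0.10 in homozygous libraries (edgeR adjusted p 0.0239, lost without homozygous E9.0 replicate 1 or homozygous E9.5 replicate 2). The 2 members that fell in homozygous libraries were Jag1, by 0.30 on the log2 scale (SE 0.09; edgeR adjusted p 0.0204, lost without homozygous E9.0 replicate 3 or homozygous E9.5 replicate 1), and Hes1, by 0.28 (SE 0.07; edgeR adjusted p 0.00817). In heterozygous libraries these genes were at −0.19 ± 0.09 and −0.13 ± 0.07 and did not pass the test. Without heterozygous E9.5 replicate 2 for Jag1 (−0.30) and heterozygous E9.0 replicate 2 for Hes1 (−0.21) they did, and they turned positive, at 0.18 and 0.25, with total counts as the only scaling, under which the homozygous calls of both were also lost (−0.13 and −0.11). Lfng was at 0.11 ± 0.11 and 0.05 ± 0.11 (edgeR adjusted p 0.438 and 0.777), and with total counts as the only scaling its heterozygous value passed the test at 0.48 (adjusted p 0.0142). No interaction passed the test, so a call in 1 genotype alone does not show a difference between genotypes.

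**Figure D4:**
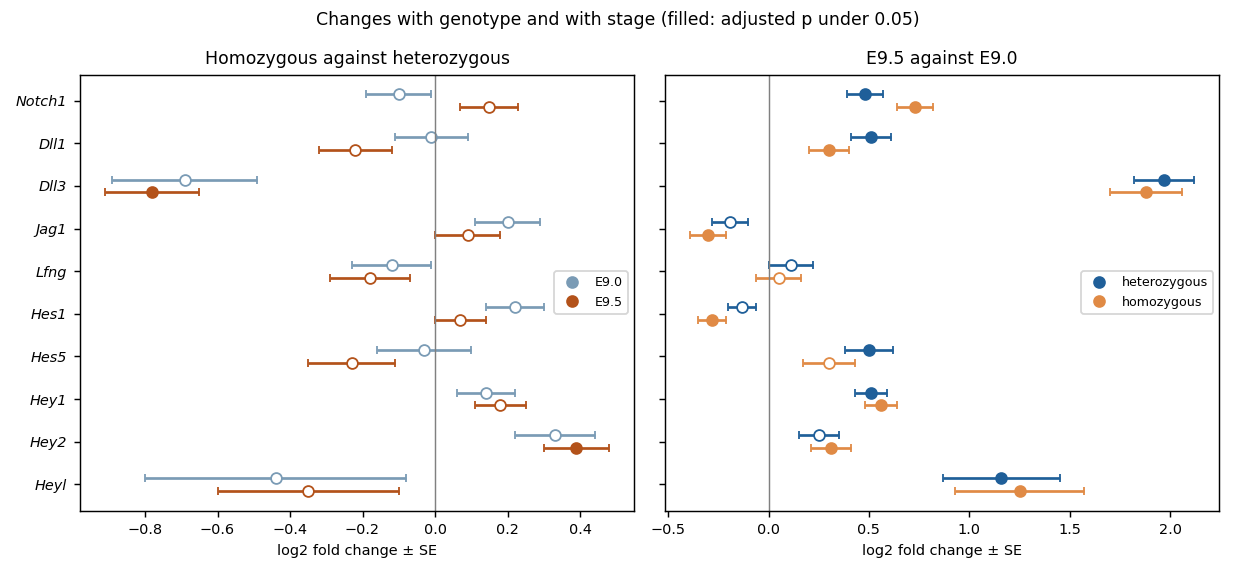
Log2 fold changes ± SE of the 10 members from edgeR, homozygous against heterozygous at each stage on the left and E9.5 against E9.0 in each genotype on the right; filled points have an adjusted p under 0.05. Dll3 is at −0.78 and Hey2 at 0.39 on the left at E9.5, and Dll3 is near 1.97 and 1.88 on the right.

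The remaining pathway was read from a list of 43 other Notch genes, of which 41 were tested. At E9.0 and at E9.5, 0 of the 41 passed the genotype test, against 0.587% and 1.89% of all genes. In edgeR 5 and 6 of the 41 had an unadjusted p under 0.05, as did 1969 and 1984 of the 14810 genes tested. The medians of the 41 were −0.05 and 0.01 against 0.00 for all genes. Averaged over both stages 2 fell and 0 rose, where 1.14% of all genes fell and 1.82% rose. These were Dtx4, a Deltex ubiquitin ligase gene, at −0.31 ± 0.07 (edgeR adjusted p 0.0247), and Poglut1, whose product adds glucose to Notch receptors, at −0.17 ± 0.04 (edgeR adjusted p 0.0297). Dtx4 lost its call without any 1 heterozygous E9.0 library, homozygous replicate 2 or 3 of E9.0, or homozygous replicate 1 or 2 of E9.5. Poglut1 lost it at E9.0 without heterozygous replicate 2 or homozygous replicate 1 or 3, and at E9.5 without heterozygous replicate 1 or 3 or homozygous replicate 2 or 3. Both lost it with total counts as the only scaling (−0.21 and −0.07). From E9.0 to E9.5, 9 of the 41 rose and 6 fell in heterozygous libraries, and 11 rose and 6 fell in homozygous ones, beside 19.2% and 16%, and 19.6% and 15.8%, of all genes. At E9.5 the other receptors were at −0.01 ± 0.06 (Notch2), 0.07 ± 0.06 (Notch3) and 0.43 ± 0.13 (Notch4, edgeR adjusted p 0.138), and the effector Rbpj at 0.12 ± 0.08, all short of the threshold.

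Among the ligands, Dll4 of arterial endothelium was at 5.36 ± 1.01 and 6.58 ± 0.666 CPM at E9.5 (SD, n = 3 each; 0.30 ± 0.16, edgeR adjusted p 0.458), and its groups overlapped. Jag2 was at 8.43 ± 0.739 and 12.6 ± 2.23 CPM at E9.0, without overlap (0.59 ± 0.15, edgeR adjusted p 0.114), and at 22.7 ± 1.12 and 22.8 ± 4.15 CPM at E9.5. Nrarp, a feedback target of Notch that is widely used as a readout of its activity, was at 24.9 ± 5.16 and 23.1 ± 1.37 CPM at E9.0, then 53.8 ± 4.49 and 51.3 ± 0.821 CPM in the later stage, with log2 differences of −0.13 ± 0.12 and −0.07 ± 0.10 (edgeR adjusted p 0.675 and 0.867). Hes6, which promotes neuronal differentiation, was at 34.6 ± 3.64 and 28.6 ± 0.721 CPM at E9.5, without overlap (−0.27 ± 0.09, edgeR adjusted p 0.142).

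Members also varied among replicates. Heterozygous E9.5 replicate 2 was the highest of its group for Dll1 (53.2 CPM), Lfng (52.0 CPM), Hes5 (47.9 CPM), Jag1 (126 CPM) and Notch1 (121 CPM) and also for Hey2 (11.5 CPM), and the lowest for Heyl (2.70 CPM), Hey1 (29.2 CPM), Hes1 (32.2 CPM) and, by a narrow margin, Dll3 (9.12 CPM). The same library had the highest neural progenitor sum of all 12, 1100 CPM, and the lowest endothelial sum, 200 CPM. With group means removed, Dll1 and Hes5 correlated across the 12 libraries with Pearson's r 0.71 (0.51 over 11 libraries without that one), Jag1 and Lfng with 0.69 (0.38 without it), and Lfng and Heyl with −0.78 (−0.69 without it). Dll3 of the neural and Heyl of the vascular readout correlated with 0.62 (0.70 without that library). These are descriptions over libraries that share their scaling and tissue composition. With stage means removed, the genes whose pattern was most like that of Hes5 among 12033 compared were Ift57 (Pearson's r 0.91), Lmx1a (0.90) and Specc1l (0.89), and those most like Hey1 were Smad6 (0.96), Mfge8 (0.93) and Sparc (0.93), each over 12 libraries.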

How the data were processed

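Raw counts per gene symbol were deposited by the authors in 1 table of 12 libraries, with no normalization. Per the submitters' processing notes cutadapt, STAR, featureCounts and MultiQC were used with the mouse build mm10; versions, annotation and strand setting are not given in the sources used here. Counts were analysed here in R 4.3.3 with edgeR 4.0.16: filterByExpr by group kept 14810 genes (the 9611 left out held at most 0.0778% of a library), and TMM factors scaled the libraries. The quasi-likelihood F test with robust dispersions was fitted with 1 mean for each of 4 groups, and p-values were two-sided and adjusted over all genes tested with the Benjamini-Hochberg method (threshold 0.05). Standard errors (SE) were taken from the log2 fold change and the square root of the F statistic. CPM are relative to the TMM-scaled library size, and r values use log2 CPM with a prior count of 2. Exact permutation tests used the same log2 CPM, for 10 members and 41 pathway genes, and with 3 libraries against 3 cannot go below 0.1 at a single stage. The fit was also tested on simulated data, but the outcome is not given here. Exon lengths came from GENCODE M21 (GRCm38, the same assembly as mm10) and upstream sequences from RefSeq GRCm38.p6.

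Named genes are the 10 members, listed pathway genes (those past the threshold and 8 set ones), marker genes past the threshold beside a member's result, and the 3 genes with a mean of at least 50 counts that were most like Hes5 and Hey1. Neurog2, Hes3, other markers short of the threshold, and the genes most like Dll3 and Hey2, were chosen after their values were seen. The result of 1 marker gene is not reported here. The members, lists and tests were chosen with earlier results of these data known. Alternatives were other scalings, DESeq2 1.42.0, limma-voom (limma 3.58.1), other filters, non-robust dispersions, fits of the compared groups alone, a replicate block, leaving out each library, and, added after seeing the data, a correction for GC content and length.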

Additional observations from a re-analysis of the deposited data

How the results depend on the processing

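Dll3 at E9.5, and Dll3 and Hey2 averaged over both stages, kept direction and call in every alternative tried. The number of members called at E9.5 fell from 2 to 1, Hey2 being lost, with total counts only, with only the groups compared and with the replicate block (1 each), and it was 1 to 1 over the fits without 1 library; at E9.0 it was 0 to 1 over such fits. With total counts only, the E9.0 differences of Notch1, Dll1, Lfng and Hes5 turned to 0.10, 0.17, 0.08 and 0.15, the interactions of Hey1, Hey2 and Heyl to −0.16, −0.15 and −0.13, and the heterozygous stage changes of Jag1 and Hes1 to 0.18 and 0.25; the median of all genes moved by 0.19 at E9.0. Dll1 at E9.0 was 0.02 with upper-quartile factors and 0.00 with a mean of at least 50 counts or only the groups compared. Without 1 library, uncalled differences crossed zero: at E9.0 Notch1 (−0.17 to 0.01), Dll1 (−0.07 to 0.05) and Hes5 (−0.15 to 0.02), at E9.5 Jag1 (−0.01 to 0.20), on average Notch1 (−0.01 to 0.09), the interactions of Dll3 (−0.21 to 0.13), Jag1 (−0.21 to 0.00), Lfng (−0.16 to 0.10), Hey1 (−0.01 to 0.11), Hey2 (−0.01 to 0.11) and Heyl (−0.15 to 0.41), and the stage change of Lfng (−0.05 to 0.19 in heterozygous, −0.04 to 0.12 in homozygous). The causes were not tested. Same-numbered libraries of both genotypes correlated with r of 0.03 to 0.11 in their deviations from group means, and differently numbered ones with −0.2 to 0.17. Whether the numbers pair samples, for example by litter or batch, cannot be told from these values. Under the block Dll3 at E9.5 kept its call and Hey2 lost it. Dll3 at E9.0 and Heyl had the lowest counts of the members.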

Other observations

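Hes3, a Hes gene of early neural progenitors and the midbrain-hindbrain boundary, had lower values in all homozygous than in all heterozygous libraries of a stage, at 12.6 ± 2.70 against 8.12 ± 1.17 CPM at E9.0 and 5.14 ± 2.89 against 2.12 ± 0.641 CPM at E9.5 (SD, n = 3 each). It did not pass the test at E9.5 (−1.27 ± 0.37, edgeR adjusted p 0.135) or on average (−0.94 ± 0.25, edgeR adjusted p 0.0772), and unlike Hes5 its mean level was lower at E9.5 than at E9.0 in both genotypes.

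The genes whose pattern was most like that of Dll3, with stage means removed, were Cadps, a secretory vesicle gene (Pearson's r 0.98 over 12 libraries), Zfp647 (0.96) and L1cam, a neuronal adhesion gene (0.94). L1cam was lower in homozygous libraries, from 6.44 ± 0.714 to 3.33 ± 0.199 CPM at E9.0 and at E9.5 from 5.45 ± 0.500 to 2.96 ± 0.271 CPM (SD, n = 3 each). The pattern compared holds the genotype difference, so a difference like that of Dll3 follows from the choice and is a description only. Dll3 rose with stage, while the mean level of L1cam was lower at E9.5. The genes most like Hey2 were Bend6 (0.97), Sgms1 (0.94) and Plet1 (0.94). Bend6 was at 1.22 ± 0.214 and 2.02 ± 0.384 CPM at E9.0 and at 2.37 ± 0.107 and 3.93 ± 0.108 CPM at E9.5 in heterozygous and homozygous libraries (SD, n = 3 each), with the same limit.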
